A study of Mus musculus with 6 samples.

Results

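Genes of DNA replication and mitosis were compared between mouse spleen cells that had taken up label from human mesenchymal stromal cells (MSCs) and cells that had not. The 44 genes were found by symbol in a deposited table of 21847 genes, and all 44 were present and passed the filter on low counts. They were divided into 22 genes of S phase, in which DNA is copied, and 22 of G2/M, in which the cell prepares to divide and divides. In both groups, splenocytes depleted of T cells had been cultured for 3 days on human cord tissue MSCs carrying Qtracker, a fluorescent quantum dot label. Cells labelled as macrophages were then sorted into Qtracker positive cells, recorded as having engulfed MSCs, and Qtracker negative cells, recorded as not having done so. Each group had 3 libraries, numbered as pairs, and every cell compared had been exposed to MSCs. Strain, genotype, age and the number of animals are not stated in the labels. Each p-value therefore reflects only variation among these 6 libraries, part of which may be technical. The sort kept CD11b positive cells, and the labels disagree on whether Ly6G or Ly6C was the marker required to be absent.

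Cells commit to S phase when cyclin-dependent kinases release the E2F transcription factors from retinoblastoma family proteins, and E2F then switches on genes for origin licensing, the MCM helicase, polymerases and nucleotide synthesis. A later set of genes for cyclin B, mitotic kinases, kinetochores and the spindle is switched on in G2 and M, in part through a promoter element called the cell cycle homology region (CHR). Most tissue macrophages divide rarely, whereas developing granulocytes and activated lymphocytes of the spleen divide often. In bulk RNA, fewer dividing cells and less RNA of these genes per cell cannot be told apart.

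Library totals ran from 33943090 to 55506993 estimated counts, and each member had between 15 and 29016 counts in every library. Replicates 2 and 3 of each group were nearly alike, though further apart than sampling noise (chi-square per degree of freedom of 4.31 in the negative and 21.2 in the positive group), and replicate 1 stood apart (222 to 729). The labels call the replicates biological but do not say whether replicates 2 and 3 came from separate cultures or animals, and if they did not, there are 2 independent pairs and not 3. For that reason a fit with replicates 2 and 3 summed is also given. Over the 44 members, the median absolute log2 difference between replicates 2 and 3 was 0.0453 in the negative and 0.0949 in the positive group. Between replicate 1 and the others it was 1.24 and 1.25 in the negative group and 0.817 and 0.958 in the positive group. Of 10 macrophage markers, 6 rose in the positive group and 0 fell, beside 18.5% and 16.3% of all tested genes. Their summed level was 329.4 to 1735 CPM in negative and 8263 to 11520 CPM in positive libraries. CPM are counts scaled by depth, with totals corrected for composition. Markers of neutrophils, B cells and other types were present in negative libraries, and their values are given beside the results below.

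Replication and mitosis genes were lower in Qtracker positive cells, and the gap was much wider in pairs 2 and 3 than in pair 1. Of the 44 members, 20 fell, 0 rose and 24 did not pass the test (edgeR quasi-likelihood test with pair as a block, adjusted p under 0.05), beside 16.3% of all tested genes that fell and 34.9% called in either direction. The median log2 fold change was -2.46 over the members and -0.01 over all 14605 tested genes. In 39 of the 44, all positive libraries lay below all negative ones, a pattern seen in 29.4% of all tested genes (59.4% were separate in either direction). The 2 members with the opposite pattern, against 30% of all tested genes, were Pcna and E2f1, and neither passed the test. The number of calls differed widely between fits and sets of libraries. Without the replicate block 39 members were lower at the threshold, beside 20.9% of all tested genes, and DESeq2 with the block also gave 39, beside 25.1%. Without replicate 1 edgeR gave 42, beside 35.8%. Without replicate 2 or without replicate 3 it gave 0, beside 1.18% and 0% of all tested genes. In each case 42 members kept a negative fold change, while 7362 of all 14605 tested genes were negative in the full fit. Without replicate 2 and without replicate 3, 19 and 18 members had an unadjusted p under 0.05. At that level 15.1% and 14.5% of all tested genes were lower. With replicates 2 and 3 summed to 1 library per group, edgeR gave 0 of 44 (0% of all tested genes), limma-voom 4 (4.75%) and DESeq2 33 (12.2%).

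**Figure D1:**
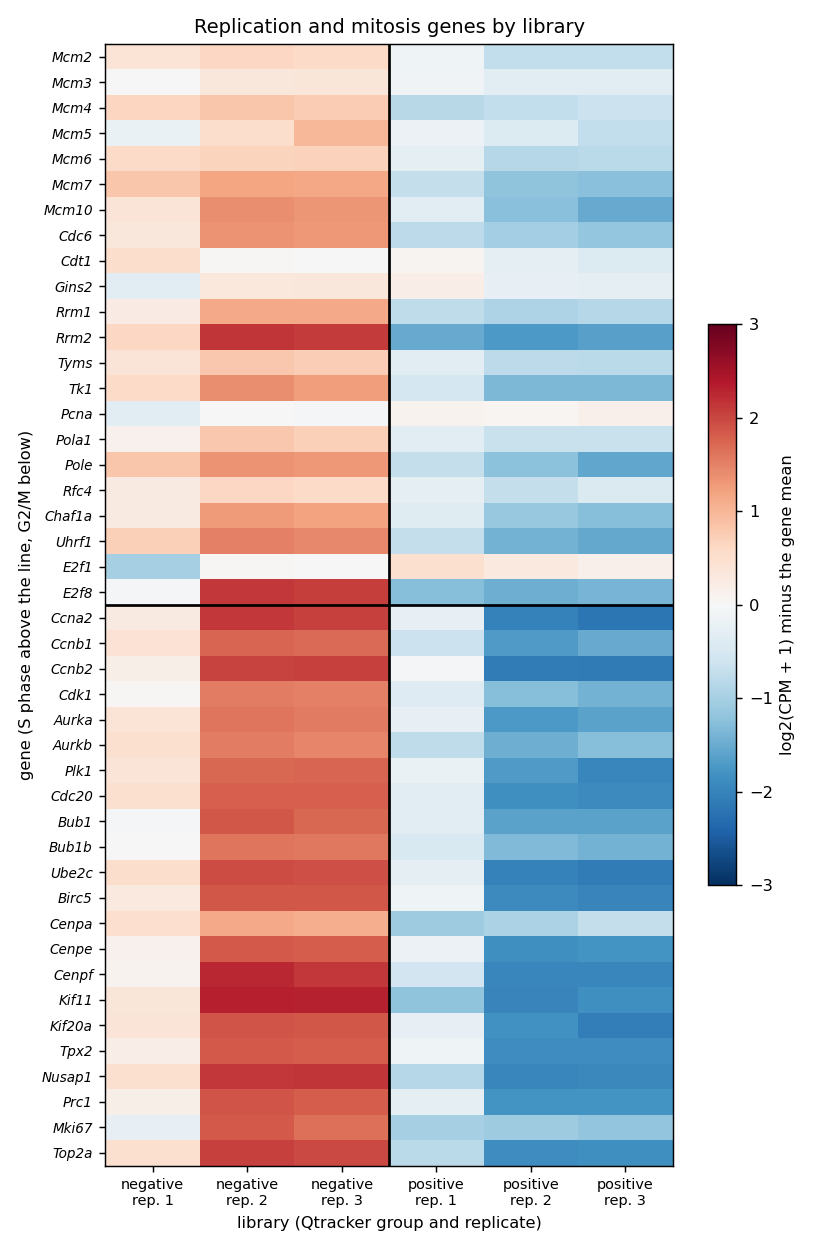
Heat map of the 44 genes (rows) in the 6 libraries (columns); colour is log2(CPM + 1) minus the gene's mean over the libraries, red above and blue below. Negative replicates 2 and 3 are the reddest columns and positive replicates 2 and 3 the bluest, replicate 1 of each group is paler, and Pcna and E2f1 run the other way.

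The S phase and G2/M genes differed in how many passed and in how far they moved. Of 22 S phase members 14 fell, with a median log2 fold change of -1.61. Of 22 G2/M members 6 fell, although all 22 were lower in every pair and their median was -2.87. Among all 14605 tested genes 16.3% fell, and 5262 genes were lower in every pair. The standard error was larger for the G2/M genes, with a median of 0.888 against 0.314 for the S phase genes and 0.249 over all tested genes. The blocked edgeR fit left 16 G2/M members at adjusted p values of 0.0539 to 0.115. All 22 G2/M members passed without the block, by DESeq2 and without replicate 1.

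Within pair 1 the phases were close, with a median log2 change of -0.81 for S phase and -0.69 for G2/M genes. Within pairs 2 and 3 the G2/M median was -3.91 and -3.88, and the S phase median -1.74 and -1.89. All 22 G2/M members and 20 of 22 S phase members had a higher (mostly less negative) change in pair 1 than in the other pairs. That count was not made over all tested genes, whose median changes were -0.0098, 0.0069 and 0.0045 in pairs 1, 2 and 3. At least 4-fold lower levels were found in 0 of 22 G2/M members in pair 1, 22 in pair 2 and 21 in pair 3, against 13.8%, 12.5% and 12.6% of all tested genes. The same count for S phase members was 1, 10 and 11 of 22. Whether the phases differ was not tested, since the genes of a phase are not replicates.

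**Figure D2:**
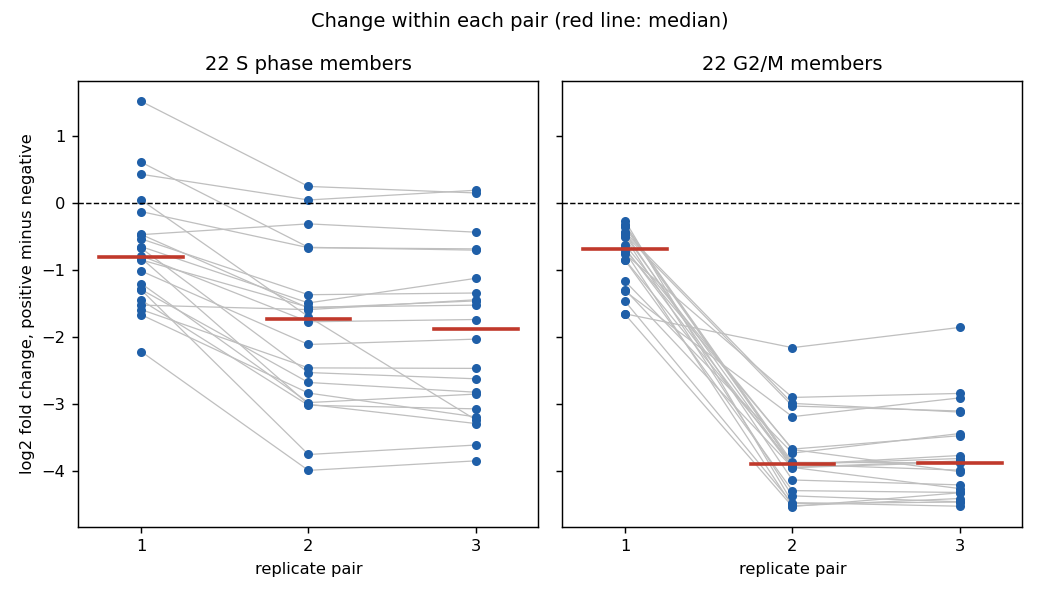
Log2 fold change (positive minus negative) of each member within each replicate pair, with grey lines joining the points of 1 gene and red lines marking the median; the pairs have no order. The G2/M genes lie between -0.26 and -1.67 in pair 1 and between -1.86 and -4.54 in pairs 2 and 3, while the S phase genes spread on both sides of 0 in pair 1.

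The narrow gap in pair 1 came from both of its libraries. In the negative group, 43 of 44 members were lower in replicate 1 than the mean of replicates 2 and 3, with a median log2 difference of -1.27, beside 49% of all tested genes. The exception was Cdt1. In the positive group, 41 of 44 members were higher in replicate 1 than in the other replicates, with a median of 0.87, beside 48% of all tested genes. The exceptions there were Cenpa, Mcm4 and Pcna. The shift was wider for G2/M members, at -1.62 in the negative and 1.63 in the positive group, than for S phase members, at -0.70 and 0.48.

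Summed over the 22 S phase members, the level was 834.8, 1280 and 1249 CPM in negative replicates 1, 2 and 3, and 553.9, 450.7 and 454.8 CPM in positive replicates 1, 2 and 3. For the 22 G2/M members the sums were 734.1, 2407 and 2284 CPM, then 412.7, 210 and 204.5 CPM. Neither sum overlapped between the groups. The G2/M sum divided by the S phase sum was 0.879, 1.88 and 1.83 in negative libraries, and 0.745, 0.466 and 0.45 in positive libraries. The lowest negative ratio was therefore close to the highest positive one, and both belong to pair 1.

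**Figure D3:**
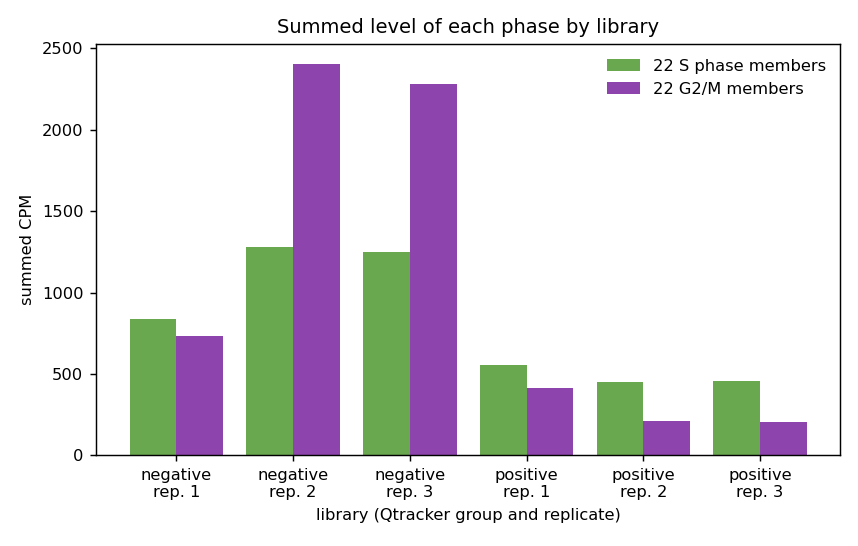
Summed CPM of the 22 S phase members (green) and the 22 G2/M members (purple) in each library; each bar is 1 library and has no error bar. The purple bar is the taller one only in negative replicates 2 and 3, at 2407 and 2284 CPM, and falls to 210 and 204.5 CPM in positive replicates 2 and 3.

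Promoters of the members were examined because most genes of each phase were lower in the positive group. RefSeq promoter sequences (GRCm38.p6, the assembly of mm10, from 250 bases before to 50 after the start) were matched for 37 of the 44 members, giving 40 promoters. They were searched on both strands for E2F letters (the letters TTCCCGC, the letters TTCGCGC, the letters TTGCCGC or the letters TTGGCGC), CHR letters (the letters TTTGAA or the letters TTCGAA) and the CCAAT box. Positions are counted from 1 at the start site, with negative numbers before it. The E2F and CCAAT letters can overlap, since TTGGCGC on one strand runs into ATTGG on the same strand.

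E2F letters stood in 15 of 21 S phase promoters (71.4%), 3 of 19 G2/M promoters (15.8%) and 9.57% of all 32851 promoters in the table. CHR letters showed the reverse, with 3 of 21 S phase promoters (14.3%), 15 of 19 G2/M promoters (78.9%) and 19.2% of all promoters. The CCAAT box was in 71.4% of S phase, 89.5% of G2/M and 37.4% of all promoters. Base composition differs between promoters and was not matched, and a letter match is a description, not a binding site. The promoters printed belong to the 2 members of each phase with the lowest p and the 1 with the highest p among those matched, with E2F and CHR letters in capitals, read 5′ to 3′ on the gene's strand.

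For S phase, the promoters shown are those of Mcm7, a subunit of the MCM helicase (2 annotated starts), of Rrm2, the small subunit of ribonucleotide reductase, and of Pcna, the sliding clamp of DNA polymerases. Mcm7 and Rrm2 fell and carry E2F letters, and Pcna did not pass the test and holds neither E2F nor CHR letters in this window. The letters did not track the calls throughout the matched S phase members. Mcm6, Cdc6, Rrm1, Pola1, Rfc4, Uhrf1 and E2f8 also fell with E2F letters, but Mcm2, Tk1 and Tyms fell without them. Mcm3, Mcm5, Cdt1 and Chaf1a carry E2F letters and did not pass, and Mcm10 and E2f1 lack them and did not pass.
Mcm7, chr5:138171834-138172133, minus strand: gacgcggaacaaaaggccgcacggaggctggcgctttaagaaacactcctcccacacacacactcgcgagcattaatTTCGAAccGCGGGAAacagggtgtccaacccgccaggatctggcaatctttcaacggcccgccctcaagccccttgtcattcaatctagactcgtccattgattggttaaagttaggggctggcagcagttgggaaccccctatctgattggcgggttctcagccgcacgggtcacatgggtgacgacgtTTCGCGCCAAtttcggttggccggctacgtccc
Mcm7, chr5:138171217-138171516, minus strand: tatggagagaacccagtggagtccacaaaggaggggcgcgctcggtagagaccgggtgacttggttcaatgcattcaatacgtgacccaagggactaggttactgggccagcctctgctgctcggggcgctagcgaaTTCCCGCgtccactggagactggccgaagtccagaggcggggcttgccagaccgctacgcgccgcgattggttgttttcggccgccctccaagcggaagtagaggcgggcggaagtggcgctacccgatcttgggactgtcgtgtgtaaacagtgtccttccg
Rrm2, chr12:24708004-24708303, plus strand: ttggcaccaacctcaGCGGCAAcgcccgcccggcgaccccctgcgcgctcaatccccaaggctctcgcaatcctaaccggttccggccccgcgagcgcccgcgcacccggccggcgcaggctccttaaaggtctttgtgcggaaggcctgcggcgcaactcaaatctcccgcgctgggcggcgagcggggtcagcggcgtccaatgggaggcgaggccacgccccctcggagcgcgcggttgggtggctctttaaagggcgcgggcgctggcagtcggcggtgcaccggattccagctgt
Pcna, chr2:132253131-132253430, minus strand: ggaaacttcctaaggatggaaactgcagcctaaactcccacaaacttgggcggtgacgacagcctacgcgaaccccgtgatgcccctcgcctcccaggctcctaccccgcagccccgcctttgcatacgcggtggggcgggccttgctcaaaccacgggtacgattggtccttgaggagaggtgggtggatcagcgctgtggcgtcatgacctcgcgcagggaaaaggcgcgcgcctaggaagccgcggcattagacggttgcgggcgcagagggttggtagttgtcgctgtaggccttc

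For G2/M, the promoters shown are those of Cenpa, the histone H3 variant of centromeres, of Kif11, the motor that pushes spindle poles apart, and of Ccnb2, a B-type cyclin. All of them hold CHR letters and none holds E2F letters. The CHR letters lie at 17 to 22 in Cenpa, at -19 to -14 in Kif11 and at 5 to 10 in Ccnb2, with a further match at -167 to -162 in Ccnb2. Here too the letters did not track the calls throughout. Top2a also fell with CHR letters, but Ccnb1 and Nusap1 fell without them. Aurka, Bub1, Bub1b, Ccnb2, Cdc20, Cdk1, Cenpf, Mki67, Plk1, Prc1 and Ube2c carry CHR letters and did not pass. Birc5 and Cenpe lack them and did not pass.
Cenpa, chr5:30666636-30666935, plus strand: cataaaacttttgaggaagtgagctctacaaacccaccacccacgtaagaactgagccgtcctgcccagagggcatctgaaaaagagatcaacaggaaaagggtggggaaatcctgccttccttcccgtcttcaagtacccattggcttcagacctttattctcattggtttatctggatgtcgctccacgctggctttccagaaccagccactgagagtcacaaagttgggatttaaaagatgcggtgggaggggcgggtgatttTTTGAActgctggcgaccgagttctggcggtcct
Kif11, chr19:37376132-37376431, plus strand: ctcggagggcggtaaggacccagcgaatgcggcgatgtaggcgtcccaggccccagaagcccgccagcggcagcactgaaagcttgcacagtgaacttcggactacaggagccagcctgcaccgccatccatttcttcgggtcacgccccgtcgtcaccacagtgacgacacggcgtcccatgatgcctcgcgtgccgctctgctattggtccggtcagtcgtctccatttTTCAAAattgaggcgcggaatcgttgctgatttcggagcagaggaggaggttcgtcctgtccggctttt
Ccnb2, chr9:70421505-70421804, minus strand: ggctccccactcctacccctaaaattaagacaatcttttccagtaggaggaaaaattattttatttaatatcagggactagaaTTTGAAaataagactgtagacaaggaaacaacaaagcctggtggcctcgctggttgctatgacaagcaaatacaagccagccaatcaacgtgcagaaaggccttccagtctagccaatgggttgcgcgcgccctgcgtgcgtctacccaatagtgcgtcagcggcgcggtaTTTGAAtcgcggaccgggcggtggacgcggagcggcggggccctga

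Licensing and helicase genes load and activate the MCM ring at origins, and 5 of these 10 fell. Beside this count and those of the other member groups below, 16.3% of all tested genes fell. Mcm4 (chromosome 16 from 15623897 to 15637400), an MCM subunit, was at 65.7, 74.4 and 71.4 CPM in negative replicates 1, 2 and 3 and at 22.8, 24.6 and 26.2 CPM in positive replicates 1, 2 and 3. The groups did not overlap and the libraries of each group were close together. Its log2 fold change was -1.52 ± 0.11 (standard error, n = 3 pairs), with adjusted p = 0.00775, the lowest among the members. Mcm7 (chromosome 5 from 138164583 to 138172422) was at 76.4, 98.1 and 95.3 CPM in negative and 25.3, 17.7 and 17.1 CPM in positive libraries. It fell in every pair, by 2.18 ± 0.25 on the log2 scale (adjusted p = 0.0137). Mcm6 (-1.31 ± 0.20) and Mcm2 (-1.09 ± 0.23), also ring subunits, fell less. Cdc6, which loads the ring with Cdt1, was at 9.20, 19.6 and 18.9 CPM in negative and 3.73, 3.01 and 2.62 CPM in positive libraries. It fell by 2.29 ± 0.41, and its lowest negative library was replicate 1.

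The other 5 licensing and helicase genes did not pass. Mcm10, which helps start unwinding, had a log2 fold change of -2.42 ± 0.64 (adjusted p = 0.0562) and did not overlap between groups. Mcm3 had -0.49 ± 0.17 and Cdt1 -0.41 ± 0.11, with adjusted p of 0.0906 and 0.0551. Cdt1 stood at 53.1 CPM in negative replicate 1, above the 37.3 and 36.7 CPM of replicates 2 and 3, and was the only member highest in that library of its group. Gins2, a subunit of the active helicase, was higher in the positive library of pair 1 (0.61) and lower in pairs 2 and 3 (-0.66 and -0.70). It shares 2758 exon bases with Gse1 on the opposite strand, and since the strand setting of the counting is unknown its value is uncertain. Mcm5 had only 0.894 to 3.37 CPM in negative libraries, and per kilobase of exon it was the lowest member, at 0.536 CPM in the negative group against 9.22 to 21.9 CPM for Mcm2, Mcm3, Mcm4, Mcm6 and Mcm7.

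All 4 genes of nucleotide supply fell. Rrm2 (chromosome 12 from 24708241 to 24714146), which limits the supply of deoxynucleotides, was at 50.05, 147 and 142.7 CPM in negative and at 10.7, 9.17 and 9.83 CPM in positive libraries. Its positive libraries were almost level while negative replicate 1 stood well below the other 2. The log2 fold change was -3.38 ± 0.47 (adjusted p = 0.0183), the largest fall among S phase members. Its partner subunit Rrm1 fell by 1.73 ± 0.29, from 58.3, 110.2 and 110 CPM to 28.8, 25.4 and 26.8 CPM. Tk1, the salvage thymidine kinase, fell by 2.37 ± 0.46, and Tyms, thymidylate synthase, by 1.44 ± 0.28.

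Among polymerase, clamp and loader genes 3 of 4 fell. Pole, the catalytic subunit of the leading strand polymerase, was at 19.6, 28.7 and 27.7 CPM in negative and at 6.13, 3.97 and 2.98 CPM in positive libraries, and fell by 2.58 ± 0.38. Pola1, of the polymerase that makes primers, fell by 1.17 ± 0.28 and the clamp loader subunit Rfc4 by 1.10 ± 0.23. Pcna (chromosome 2 from 132249162 to 132253314) was at 96.8, 122.9 and 119 CPM in negative and at 130.5, 126.9 and 135.9 CPM in positive libraries. All positive libraries lay just above all negative ones, and the log2 fold change of 0.22 ± 0.13 did not pass (adjusted p = 0.255). With library totals alone as scaling it was -0.13, so its sign depends on the scaling. Per kilobase of exon Pcna was the most abundant member in both groups, at 47.04 CPM in the negative and 54.6 CPM in the positive group.

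The chromatin and E2F genes split. Uhrf1, which carries DNA methylation through replication, was at 54.02, 94.7 and 90.9 CPM in negative and 19.7, 11.6 and 10.7 CPM in positive libraries, and fell by 2.53 ± 0.43 (adjusted p = 0.0249). E2f8, a repressor of E2F targets that is itself an E2F target, was at 19.6, 92.7 and 89.5 CPM in negative and 7.93, 6.80 and 7.25 CPM in positive libraries. It fell by 2.94 ± 0.65, and negative replicate 1 was again far below the other negative libraries. E2f8 shares 610 exon bases with Gm2788 on the opposite strand. Chaf1a, a chaperone that places histones on new DNA, had -1.97 ± 0.51 and did not pass (adjusted p = 0.0533). It shares 4648 exon bases with Ubxn6 on the opposite strand. E2f1 (chromosome 2 from 154559407 to 154569892), an activator of S phase genes, was at 14.6, 30.9 and 30.3 CPM in negative and 41.95, 36.7 and 33.6 CPM in positive libraries. It was higher in all 3 pairs, by 1.52, 0.25 and 0.15, and did not pass (0.63 ± 0.34, adjusted p = 0.218). Without replicate 1 it was called higher (0.21, adjusted p = 0.0293), the only member called so in any setting. The changes in pairs 2 and 3, on which that call rests, depend on how library totals are corrected for composition. The correction factors were 1.057 in negative replicates 2 and 3, and 0.885 and 0.882 in positive replicates 2 and 3.

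Of the cyclins and kinases of G2/M, 2 of 7 fell, beside 16.3% of all tested genes. Ccnb1, cyclin B1, which activates Cdk1 for entry into mitosis, was at 20.45, 51.95 and 50.4 CPM in negative and 9.07, 3.85 and 4.59 CPM in positive libraries. It fell by 2.83 ± 0.67 (adjusted p = 0.0451). Aurkb, the kinase of the chromosomal passenger complex, fell by 2.50 ± 0.47. Cdk1 (chromosome 10 from 69335146 to 69352938) was at 17.8, 52.1 and 51.2 CPM in negative and 13.1, 6.50 and 5.83 CPM in positive libraries. The groups did not overlap, but pair 1 differed by only -0.44 against -3.00 and -3.13, and the gene did not pass (-2.24 ± 0.71, adjusted p = 0.0795). Ccnb2 was at 19.2, 71.8 and 73.4 CPM in negative and 16.02, 3.18 and 3.13 CPM in positive libraries. Its change of -0.26 in pair 1, against -4.48 and -4.53, was the smallest and its standard error of 1.25 the largest among G2/M members. Ccna2 (-3.28 ± 1.14), the S and G2 cyclin, Plk1 (-2.87 ± 0.91) and Aurka (-2.68 ± 0.80), both mitotic kinases, also did not pass. Ccna2 shares 510 exon bases with Exosc9 on the opposite strand.

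None of the 4 checkpoint and degradation genes passed the blocked edgeR test, although all 4 had an unadjusted p under 0.05 and were lower, as 24.5% of all tested genes were at that level. Cdc20, the activator of the anaphase-promoting complex, was at 23.9, 60.2 and 60.3 CPM in negative and 13.2, 3.97 and 3.74 CPM in positive libraries. Its log2 fold change was -3.00 ± 0.87 with adjusted p = 0.0666. Ube2c, the ubiquitin-conjugating enzyme of that complex, had -3.27 ± 0.99 and shares 592 exon bases with Tnnc2 on the opposite strand. The spindle checkpoint kinases Bub1 and Bub1b had -2.80 ± 0.98 and -2.26 ± 0.70. For each of the 4 the positive libraries lay below the negative ones, and the pair 1 changes ran from -0.36 for Bub1 to -0.86 for Ube2c.

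Of 4 kinetochore and passenger genes, Cenpa fell. Cenpa (chromosome 5 from 30666777 to 30674830) was at 33.8, 52.9 and 51.3 CPM in negative and at 10.7, 11.8 and 14.1 CPM in positive libraries. Its change was alike in the pairs, at -1.66, -2.16 and -1.86, and its log2 fold change of -1.90 ± 0.15 had the lowest adjusted p of the G2/M members (0.0095). Cenpf, a large kinetochore protein, had -3.37 ± 1.08 and the motor Cenpe -2.81 ± 1.00. Birc5, or survivin, of the passenger complex, had -3.07 ± 1.07. These 3 did not pass, with pair 1 changes of -0.33 to -0.73.

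Spindle motors and bundlers gave 2 calls among 5 genes. Kif11 (chromosome 19 from 37376403 to 37421859) was at 32.6, 130.6 and 128.1 CPM in negative and 10.3, 5.58 and 6.32 CPM in positive libraries. It fell by 3.58 ± 0.78 (adjusted p = 0.0389), the largest fall of all members. Nusap1, a microtubule binding protein, fell by 3.56 ± 0.85, from 19.7, 63.4 and 64.2 CPM to 7.09, 2.77 and 2.85 CPM. Tpx2 (-2.82 ± 1.01), which nucleates spindle microtubules, Kif20a (-3.07 ± 0.98) and Prc1 (-2.88 ± 0.97), both of the central spindle, did not pass. Kif20a shares 1271 exon bases with Cdc23 and Prc1 911 with Rccd1, each on the opposite strand.

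Mki67, the proliferation marker Ki-67 that coats mitotic chromosomes, was at 152.7, 649.7 and 576 CPM in negative and at 90.2, 86.6 and 79.99 CPM in positive libraries. The positive libraries were level and the negative ones differed by over 4-fold. Its log2 fold change of -2.20 ± 0.57 just missed the threshold in edgeR (adjusted p = 0.0539), and passed without the block (adjusted p = 0.015 by edgeR) and by DESeq2 (adjusted p = 0.000114). Top2a, the topoisomerase that untangles sister chromosomes, was at 121.7, 364 and 347.8 CPM in negative and at 49.5, 23.4 and 23.6 CPM in positive libraries. It fell by 3.10 ± 0.73 (adjusted p = 0.045).

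Other genes of the cell cycle were read from lists of the same phases. Of 50 other replication genes 24 fell and 1, the polymerase subunit Pole4, rose, with a median log2 fold change of -0.95. Over all tested genes 16.3% fell and 18.5% rose. The Pole4 value of 0.46 had an adjusted p of 0.0499 by edgeR with overlapping groups, and 0 of these genes were called higher without the block or by DESeq2. Pold1, the catalytic subunit of the lagging strand polymerase, was at 131.4, 82.9 and 80.1 CPM in negative and 32.8, 25.7 and 23.1 CPM in positive libraries, and fell by 1.83 ± 0.12. Unlike most members it was highest in negative replicate 1. Rpa2, which coats single-stranded DNA, fell by 1.58 ± 0.13, the checkpoint adaptor Topbp1 by 1.24 ± 0.13 and Dut, which removes dUTP, fell by 2.21 ± 0.23. Rfc1, the large subunit of the clamp loader, is listed at 0 in positive replicate 1 and at 12.8 and 32.5 CPM in positive replicates 2 and 3, against 29.3 to 38.3 CPM in negative libraries, and was not called.

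Of 55 other mitosis genes tested, 18 fell and 1 rose, beside 16.3% and 18.5% of all tested genes. Their median was -2.78, with medians of -0.70, -3.59 and -3.47 in pairs 1, 2 and 3. Cdc25b, a phosphatase that activates Cdk1, was level within each group, at 117.8, 115.3 and 116 CPM in negative and 37.8, 41.5 and 40.1 CPM in positive libraries, and fell by 1.55 ± 0.11. Mybl2, which joins the complex that switches on G2/M genes, fell by 2.68 ± 0.27, and the centromere protein gene Cenpn by 2.14 ± 0.25. Foxm1, the transcription factor of that program, had -3.21 and did not pass (adjusted p = 0.0835). The gene that rose was Ncapg2, a subunit of condensin II, at 13.9, 75.2 and 73.5 CPM in negative and 36.9, 151.7 and 173.3 CPM in positive libraries. It was higher in each pair (1.22 ± 0.13, adjusted p = 0.0131), but the groups overlapped and an unblocked edgeR fit did not call it (adjusted p = 0.282).

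Of 13 genes of G1 and cell cycle entry, 6 fell and 1 rose, beside 16.3% and 18.5% of all tested genes. E2f2, an activator E2F, was at 142.1, 299.2 and 290.1 CPM in negative and 22.5, 36.1 and 29.3 CPM in positive libraries, and fell by 3.01 ± 0.19 (adjusted p = 0.00709), while E2f1 was not called. Cdk2, the kinase of S phase entry, fell by 1.44 ± 0.19. Cyclin D2, from Ccnd2, fell by 2.04 ± 0.23 and lost its call without the block (adjusted p = 0.0898). Cdk4, the kinase partner of D cyclins, rose from 90.9, 72.4 and 72.8 CPM to 177.6, 130.2 and 127 CPM, by 0.87 ± 0.11 (adjusted p = 0.016). It shares 641 exon bases with Tspan31 on the opposite strand.

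No gene of a list of those that restrain division rose in the blocked edgeR test, while some other fits called genes of it higher. Of 23 tested CDK inhibitors, pocket proteins and arrest genes 7 fell and 0 rose by edgeR, beside 16.3% and 18.5% of all tested genes. In that fit 15 had an unadjusted p under 0.05 in either direction, beside 50.3% of all tested genes. By DESeq2 14 fell and 2 rose. Cdkn1b, which encodes the inhibitor p27, fell from 123.5, 101.9 and 109 CPM to 38.2, 47.3 and 47.05 CPM, by 1.34 ± 0.17. Ccng2, a cyclin of quiescent cells, fell by 1.54 ± 0.10, and the antiproliferative genes Btg2 and Btg1 fell by 2.39 ± 0.30 and 0.97 ± 0.20. Cdkn1a, which encodes p21, was the highest log2 fold change of the list at 1.33 and did not pass (adjusted p = 0.0613). Per kilobase of exon it was at 9.68, 15.55 and 14.32 CPM in negative and 46.81, 27.82 and 26.55 CPM in positive libraries. All its positive libraries lay above all negative ones, as in 30% of all tested genes.

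**Figure D4:**
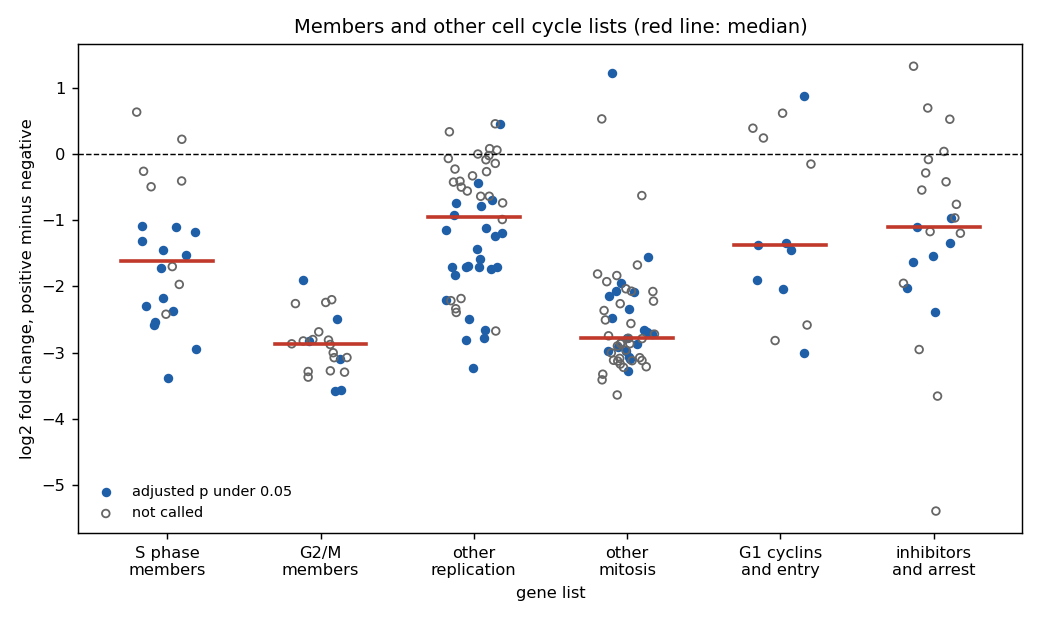
Log2 fold change (positive minus negative) of every tested gene of the member lists and of 4 other cell cycle lists; filled points passed the edgeR test at adjusted p under 0.05, open points did not, and red lines are medians. The G2/M members and other mitosis genes cluster near -2.87 and -2.78, the S phase members and other replication genes lie nearer 0 at -1.61 and -0.95, and the point at 1.22 is Ncapg2.

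Most markers of other cell types were also lower in Qtracker positive cells, and the order among replicates differed between lists. Over all tested genes 16.3% fell and 18.5% rose. All 9 mature neutrophil markers were lower (8 fell), with a summed level of 2398 to 65510 CPM in negative and 217.5 to 668.3 CPM in positive libraries. Ly6g, whose protein is the marker required to be absent in only one of the conflicting labels, was at 1.33, 25.9 and 29.2 CPM in negative and 0.026, 0 and 0.38 CPM in positive libraries. Negative replicate 1 held the 2398 CPM. The macrophage markers were also lowest there within the negative group, at 329.4 CPM against 1735 and 1687 CPM in replicates 2 and 3. Of 6 neutrophil precursor markers 4 fell, from a sum of 1124 to 2059 CPM to one of 164.1 to 700.6 CPM, with negative replicate 1 again lowest. Among them the granule protease gene Elane was at 238.2, 520.1 and 485.7 CPM in negative and 34.97, 156.9 and 156.6 CPM in positive libraries. In the positive group the precursor sum was lowest in replicate 1. The macrophage sum (8263 CPM, against 11520 and 11380 CPM) and the mature neutrophil sum (217.5 CPM, against 644.2 and 668.3 CPM) were lowest there too. The same held for B, plasma, T and erythroid sums, while NK cell and progenitor sums were highest there. All 5 basophil and mast cell markers fell, from 81.95 to 421.2 CPM to 3.20 to 6.44 CPM, lowest in replicate 1 of both groups.

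The summed levels of B, plasma, T and NK cell markers were highest in negative replicate 1. All 6 B cell markers fell, from a sum of 1646 to 4852 CPM to one of 179 to 242.6 CPM, and 4852 CPM was in negative replicate 1. Of 5 plasma cell markers 3 fell (3612 to 5271 CPM, then 248.6 to 273.5 CPM), and Sdc1 (-0.56) and Prdm1 (0.62) did not pass. Jchain, which fell, and Prdm1 were lowest, not highest, in negative replicate 1. Of 6 T cell markers 5 fell (24.8 to 112.8 CPM, then 10.7 to 13.7 CPM). Cd4 (0.17) did not pass, with changes of -2.75, 1.35 and 1.34 in pairs 1, 2 and 3. It made up 3.225, 9.145 and 9.508 CPM of the positive T cell sums of 10.71, 13.67 and 13.52 CPM. Of 6 NK cell markers 6 fell (11.7 to 84.1 CPM, then 0.53 to 3.44 CPM). Of 5 dendritic cell markers, 4 were tested and 3 fell (24.95 to 65.9 CPM, then 4.99 to 5.54 CPM). Of 5 progenitor markers 4 fell (98.9 to 108.3 CPM, then 25.1 to 30.8 CPM). Among them was Kit, the stem cell factor receptor, at 47.9, 43.2 and 39.4 CPM and then 1.93, 5.26 and 5.26 CPM. Sox4, which did not pass, made up 25.2, 10.7 and 10.1 CPM of the positive sums of 30.8, 26.5 and 25.1 CPM. Of 3 tested erythroid markers 0 passed, and the list summed to 35.6 to 54.4 CPM in negative and 26.2 to 140.6 CPM in positive libraries, mostly from the transferrin receptor gene Tfrc. At 0 in at least 1 positive library were 10 markers, namely Ms4a3, Ly6g, Ncr1, Klrb1c, Gzma, Alas2, Hbb-bt, Fcer1a, Ms4a2 and Gata1, and Alas2 was at 0 in 1 negative library. The part of these cell types in the lower replication and mitosis genes was not tested.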

How the data were processed

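RNA of sorted mouse spleen cells was sequenced from 6 libraries, 3 Qtracker positive and 3 Qtracker negative. Per the submitters' processing notes, FastQC and Salmon were used with the mm10 build. Libraries came from a stranded kit, per the labels' protocols. Tool versions, annotation release and the strand setting of the counting are not stated there. The deposited raw table holds expected counts per gene, given as whole numbers, for 21847 genes. The authors' second deposited table holds a normalized signal whose formula is not stated, used only as an alternative.

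From these counts, 14605 genes passed filterByExpr of edgeR (at least 10 counts in enough libraries and 15 in total), and TMM scaling was applied. The quasi-likelihood test of edgeR 4.0.16 in R 4.3.3 had the pair as a block, with Benjamini-Hochberg adjustment over all tested genes and a threshold of 0.05. Standard errors come from the F statistic. CPM use TMM-scaled totals, and changes within a pair use log2 CPM with a prior count of 2. The pairing comes from the series' design text. Within a pair, the 2 libraries' departures from their own group's mean had correlations of 0.2, 0.077 and 0.16. Libraries of different number gave -0.19 to 0.15, so these values do not tell pair 2 from pair 3, and the block rests on the design text. Positions and exon lengths are from GENCODE M21. The fit was also run on simulated counts that had no differences between replicates beyond noise. That run therefore does not cover the replicate pattern seen here. DESeq2 1.42.0, limma 3.58.1 and matplotlib 3.10.9 served the alternatives and figures.

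The members and lists were chosen with earlier results of these data known. All members may be named. Of each other cell cycle list the 4 lowest p-values are named, and of each marker list the 2 highest levels may be. Ly6g, Kit, Sox4, Sdc1, Prdm1, Pole4, Rfc1, Foxm1, Cdkn1a, the markers at 0 and the genes overlapping members fall outside the rule. They were picked with their values in view. Bub3 was not matched in the table, and Kif14 and Cdkn2a did not pass the filter.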

Additional observations from a re-analysis of the deposited data

How the results depend on the processing

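The negative sign of 42 of the 44 members held without each replicate in turn, but counts of calls did not. In the full fit 7362 of all 14605 tested genes were negative. Without the replicate block, which the study's pairing calls for, 39 of 44 members fell in place of 20, 22 of 22 G2/M members in place of 6, 48 other mitosis genes in place of 18, and 13 CDK inhibitor and arrest genes in place of 7 with 2 higher, while 0 other mitosis and 0 other replication genes were higher. The S phase count was 17 in place of 14, and 20.9% of all tested genes were lower in place of 16.3%. DESeq2 with the block gave 39 members, 22 G2/M members, 51 other mitosis genes, 14 arrest genes lower and 2 higher, and 3665 of all genes lower in place of 2384. limma-voom gave 12 G2/M members and 33 other mitosis genes lower, beside 19.5% of all tested genes. It gave 2 arrest genes higher, beside 3013 of all genes. Leaving out 1 replicate gave 0 to 42 members lower and 0 to 1 higher, 0 to 20 and 0 to 1 for S phase, 0 to 22 lower for G2/M, 0 to 42 and 0 to 3 for other replication, 0 to 53 and 0 to 2 for other mitosis, 0 to 10 and 0 to 3 for G1, 0 to 17 and 0 to 3 for arrest genes, and 0 to 5352 and 0 to 5538 for all genes. The highest values came without replicate 1. With 0 calls without replicate 3, 4209 genes had an unadjusted p under 0.05 by edgeR.

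With library totals alone the median of all genes was -0.36 in place of -0.01. Of calls, 32.2% were higher in place of 53.2% (1572 higher in place of 2707), and Pcna reversed to -0.13. In that fit 12 G2/M members, 33 other mitosis and 12 arrest genes were lower, beside 22.7% of all tested genes in place of 16.3%. Pole4, the 1 other replication gene called higher, was lost (0 higher) under median-of-ratios size factors, library totals, no filter, the stricter filter, DESeq2 and the authors' normalized values, and the last gave 1 arrest gene higher.

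Summing replicates 2 and 3, chosen after seeing the data, gave 0 calls of any kind in edgeR, with 4488 genes at an unadjusted p under 0.05. limma-voom then gave 4 members, 3 S phase and 1 G2/M member, 4 other replication, 3 other mitosis, 2 G1 and 2 arrest genes lower, 740 of all genes lower and 665 higher, with 0 other replication, other mitosis and G1 genes higher. DESeq2 gave 33 members, 21 G2/M members, 15 other replication and 40 other mitosis genes lower, beside 1907 of all genes. It gave 1 arrest gene, 0 other replication and G1 genes and 1582 of all genes higher. The cause of these differences was not tested. Depth was not varied, so what it limits was not measured.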
